A study of Homo sapiens with 24 samples.

Results

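The measurement described here is the difference in the transcriptional response to lurbinectedin between small-cell lung cancer cell lines classed as ISL1-high (H187 and H209) and ISL1-low (H82 and SHP-77). Each line was grown with 0.1 nM lurbinectedin or with DMSO, the vehicle, for 24 h in 3 biological replicates, so that 24 libraries of ribosomal RNA-depleted total RNA fall into 8 groups of 3. The response difference of a gene is its mean log2 fold change (lurbinectedin against DMSO) in H187 and H209 minus its mean log2 fold change in H82 and SHP-77, and a positive value means a higher response in the ISL1-high lines. It was computed for the 11408 genes that the deposited tables of all 4 lines list, out of 14023 for H187, 14421 for H209, 13516 for H82 and 14190 for SHP-77. A class is 2 cell lines, each an established culture from 1 tumour, and the lines enter the test as fixed groups, so p-values measure the spread between replicate cultures and the results hold for these 4 lines.

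Small-cell lung cancer is a neuroendocrine tumour of the lung, and ISL1 is a developmental transcription factor that specifies motor neurons and pancreatic islet cells. Lurbinectedin binds guanine bases in the minor groove of DNA and blocks elongating RNA polymerase II, so long transcription units and the cell cycle are known points of its action. Cells that lack amino acids, haem or protein-folding capacity switch on the integrated stress response, in which phosphorylated eIF2 lowers general translation and favours the transcription factor ATF4, whose targets include stress regulators, amino acid enzymes and transporters and tRNA synthetases.

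Total counts per library over the shared genes ran from 23192185 to 30391465 in the ISL1-high lines and from 25407678 to 34804898 in the ISL1-low lines. The small difference in depth goes with the classes and its part in the results was not tested. ISL1 itself stood at 251 to 268 CPM (counts scaled to library size) in H187 and 205 to 219 CPM in H209 under DMSO, against 3.75 to 4.46 CPM in H82 and 0.920 to 0.981 CPM in SHP-77, as the class names state. The small-cell lung cancer markers INSM1, SYP, NCAM1, DLL3 and UCHL1 were listed for all 4 lines. Under DMSO INSM1 averaged 13.4 CPM in H82 against 588 to 817 CPM in the other 3 lines. CHGA and NEUROD1 were not listed in all 4 tables. Among markers of tuft-like cells, leukocytes, fibroblasts and endothelium, CD68 alone was listed in all 4, at 0.562 to 1.67 CPM.

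Lurbinectedin moved many more transcripts in the ISL1-high lines than in the ISL1-low lines, and the test of the difference itself called 3580 of 11408 genes, 31.4% (edgeR's quasi-likelihood test, Benjamini-Hochberg adjusted p under 0.05). Of these, 1812 (15.9%) had a higher and 1768 (15.5%) a lower response in the ISL1-high lines, and the sign was shared by all 4 high-low line pairs in 1652 (14.5%) and 1653 (14.5%) of the genes tested. The shares of 15.9% and 15.5% are the background for the counts of list members below. In 573 genes (5.02%) each of the 4 pairs was called on its own. The mean effect was called for 5782 genes (50.7%) in the ISL1-high lines and for 1165 genes (10.2%) in the ISL1-low lines. In these bulk libraries a change in the share of cells in a state and a change in RNA per cell cannot be told apart. Large differences were few. A called difference of at least 1 on the log2 scale was found in 31 genes (0.272%), 17 of them higher (0.149%) and 14 lower (0.123%).

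Most differences were changes in the ISL1-high lines with no call in the others. Among the 1812 genes called higher, 1508 (83.2%) rose in the ISL1-high lines and were not called in the ISL1-low lines. Among the 1768 called lower, 1309 (74%) fell in the ISL1-high lines and were not called in the others, while 213 (12%) fell in both classes and fell further in the ISL1-high lines. The largest rises and the largest falls differed in this respect. The 19 genes that rose at least 2-fold in the ISL1-high lines had a median log2 fold change of 1.20 there and 0.04 in the ISL1-low lines, where 1 of them rose. The 32 genes that fell at least 2-fold had a median of -1.22 in the ISL1-high lines and -0.41 in the ISL1-low lines, where 25 of them also fell. These 2 groups were chosen by the effect in the ISL1-high lines, which is part of the difference, so their medians are a description.

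The contrast was not one of uniform classes. In the same fit 3524 genes (30.9%) were called for H187 and 5098 (44.7%) for H209, but 643 (5.64%) for H82 and 451 (3.95%) for SHP-77. Within the classes, the response of H209 differed from that of H187 in 1268 genes (11.1%), and that of SHP-77 from that of H82 in 39 (0.342%). Without the H209 line the response difference was called for 1959 genes in place of 3580. With the line as the unit, limma on 1 log2 fold change per line called 0 genes (smallest adjusted p 0.12), with 2047 genes (17.9%) at an unadjusted p under 0.05, 1702 of them among the 3580, and an exact two-sided permutation test of 2 lines against 2 cannot give a p below 0.333.

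**Figure D1:**
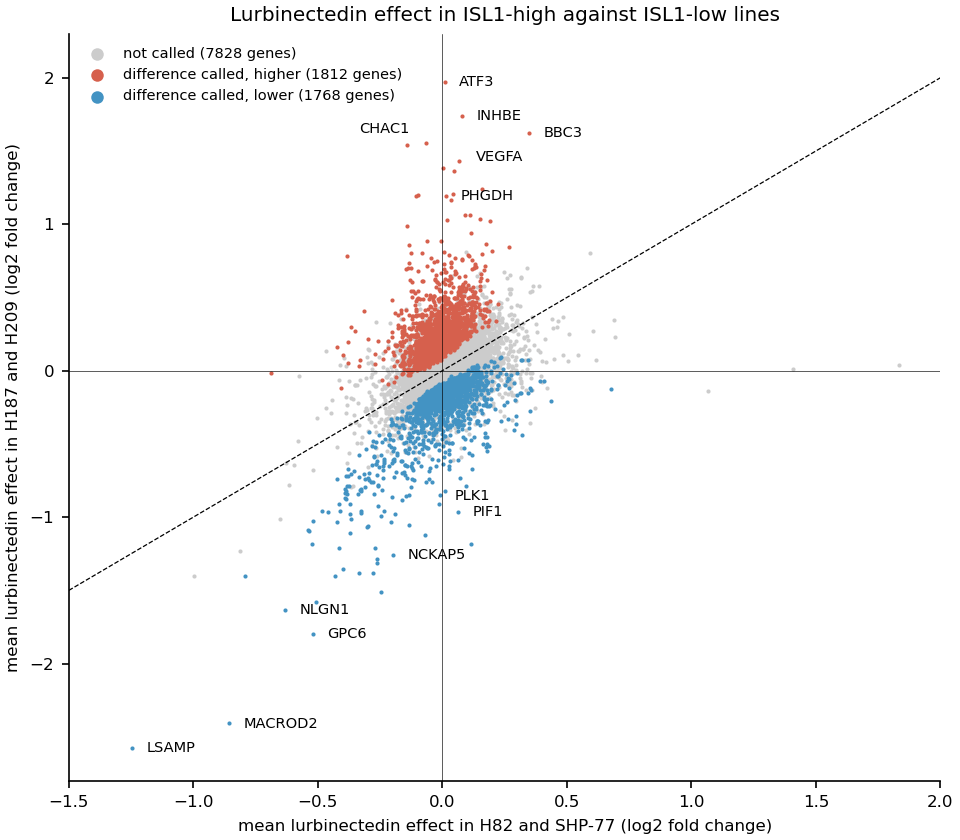
Mean lurbinectedin effect (log2 fold change) of each of 11408 genes in H187 and H209 (vertical axis) against that in H82 and SHP-77 (horizontal axis). Red and blue points are genes with a called response difference, 1812 higher and 1768 lower, grey points are the other 7828, and the dashed line marks equal effects. The stress genes ATF3, INHBE and CHAC1 lie high above a value near 0 on the horizontal axis, and LSAMP and MACROD2 lie low on both.

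Of the 12 largest positive differences named by rule (mean log2 CPM of at least 1), 8 belonged to the integrated stress response list, and 25 of its 27 members tested (of 31 listed) were called higher in the ISL1-high lines and 0 lower, beside 15.9% and 15.5% of all genes. The median response difference of the list was 0.83, against 0.00 for all genes tested. In the ISL1-high lines 26 members rose (25.4% of all genes did) and 0 fell, and in the ISL1-low lines 1 rose (4.55% of all genes) and 2 fell (5.66%). H187 had a median effect of 0.53, H209 of 0.97, H82 of -0.04 and SHP-77 of 0.03. Without the H209 line the median difference was 0.48 with 20 members called, and without the H187 line it was 1.05 with 26 called.

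ATF3, a stress-induced transcription factor of the ATF/CREB family (hg38 chr1:212565334-212620777), had the largest positive difference of the genes named by rule. It stood at 8.77, 7.73 and 8.53 CPM in the DMSO libraries of H187 and at 22.2, 23.0 and 22.0 CPM with lurbinectedin. In H209 it went from 25.4, 24.5 and 25.8 CPM to 143, 149 and 142 CPM. In H82 the values were 13.8, 15.8 and 12.8 CPM under DMSO and 15.5, 13.7 and 13.6 CPM with lurbinectedin, and in SHP-77 they were 7.17, 7.65 and 7.39 CPM and 7.55, 6.61 and 8.04 CPM. Treated and untreated libraries were fully apart in both ISL1-high lines and overlapped in both ISL1-low lines. The effect was 1.42 for H187 and 2.52 for H209 but 0.01 for each ISL1-low line, a response difference of 1.96 ± 0.07 (SE, adjusted p = 2.7e-22).

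CHAC1, which encodes an enzyme that degrades glutathione (chr15:40953471-40956519), rose from 3.46, 3.52 and 3.28 CPM to 8.95, 11.2 and 11.6 CPM in H187. It rose from 23.2, 24.5 and 22.5 CPM to 67.4, 62.4 and 64.0 CPM in H209. H82 had 4.83, 4.68 and 4.27 CPM under DMSO and 3.11, 4.48 and 4.56 CPM with the drug, and SHP-77 had 23.1, 22.4 and 21.3 CPM and 21.4, 21.6 and 25.7 CPM. Again the groups overlapped in the ISL1-low lines alone, although H209 and SHP-77 began at nearly the same level. The response difference was 1.62 ± 0.10 (adjusted p = 2.5e-15).

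The promoters of these 2 genes are shown because the C/EBP-ATF element, the DNA sequence bound by dimers of ATF4 with C/EBP proteins, was looked for in every promoter window (RefSeq, GRCh38.p14, 250 bases before to 50 bases after the start, gene strand). Windows were available for 9079 of the 11408 genes. Only the first listed window of a gene was searched, and any other start of the gene was not. Capitals mark the match to TGATGNAA, searched on both strands. The match lies on the gene strand at position -191 from the start in ATF3 (chr1:212565157-212565456, plus strand) and on the opposite strand at position -209 from the start in CHAC1 (chr15:40953221-40953520, plus strand).
ATF3: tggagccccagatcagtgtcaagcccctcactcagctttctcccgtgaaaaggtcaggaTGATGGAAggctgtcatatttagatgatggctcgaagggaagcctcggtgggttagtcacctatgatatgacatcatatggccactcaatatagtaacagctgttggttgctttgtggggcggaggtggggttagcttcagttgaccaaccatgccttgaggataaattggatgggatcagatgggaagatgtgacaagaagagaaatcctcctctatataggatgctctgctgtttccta
CHAC1: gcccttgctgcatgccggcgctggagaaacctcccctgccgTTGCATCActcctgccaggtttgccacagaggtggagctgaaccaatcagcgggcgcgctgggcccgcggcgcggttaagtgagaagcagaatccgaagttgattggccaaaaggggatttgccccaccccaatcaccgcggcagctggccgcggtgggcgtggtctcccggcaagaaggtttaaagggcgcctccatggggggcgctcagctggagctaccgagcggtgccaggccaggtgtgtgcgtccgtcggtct
TGATGNAA was present in 121 of the 9079 windows (1.33%). It was in 4 of 21 integrated stress response windows (19%), in 3 of 12 amino acid transporter windows (25%) and in 5 of 12 cytosolic tRNA synthetase windows (41.7%). Of 1365 windows of genes called higher with the same sign in all pairs, 26 (1.9%) held it, so most genes with a higher response had no such match in this window. A match is a description of letters and not evidence of binding.

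Other regulators of the pathway differed in size between the ISL1-high lines. TRIB3, a pseudokinase induced by ATF4, rose from 7.99 to 9.10 CPM over the H187 DMSO libraries to 13.3 to 15.3 CPM, and from 49.9 to 53.5 CPM to 213 to 214 CPM in H209. It lay between 40.3 and 43.8 CPM in all 6 H82 libraries and between 53.2 and 58.1 CPM in all 6 SHP-77 libraries (difference 1.38 ± 0.05, adjusted p = 2.7e-22). DDIT3, which encodes the pro-apoptotic factor CHOP, rose by 0.78 (H187) and 1.61 (H209), beside -0.04 (H82) and -0.17 (SHP-77) (difference 1.30). SESN2, a brake on the growth kinase mTORC1, followed the same order at 0.96, 1.77, 0.01 and 0.09. ATF4 itself is regulated mainly in translation. Its transcript overlapped between treatments in H187 (216 to 256 CPM under DMSO, 228 to 255 CPM with lurbinectedin) and rose in H209 from 266 to 285 CPM to 401 to 408 CPM. The response difference of ATF4 was 0.37.

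Secreted products of the response were among the largest differences. INHBE, a subunit of the activin ligand family (chr12:57455291-57458013), rose from 3.31, 3.56 and 3.93 CPM to 10.9, 11.3 and 10.8 CPM in H187 and from 5.92, 5.20 and 6.17 CPM to 20.5, 19.7 and 22.6 CPM in H209. The ISL1-low lines had more of it before treatment, 22.9 to 26.2 CPM in H82 and 19.8 to 21.5 CPM in SHP-77. With lurbinectedin they had 22.5 to 23.9 CPM and 24.2 to 24.8 CPM, an effect of -0.10 and 0.25. The response difference of INHBE was 1.66 ± 0.08 (adjusted p = 3.7e-19). VEGFA, the angiogenic growth factor, rose in H187 from 2.33 to 2.85 CPM to 6.04 to 6.71 CPM and in H209 from 41.0 to 46.6 CPM to 123 to 134 CPM, with effects of 0.06 and 0.07 in the ISL1-low lines (difference 1.36). STC2, a secreted glycoprotein, had a difference of 1.29 and ADM2, a peptide hormone, one of 1.16. For ADM2 the effect was 0.61 in H187 and 1.80 in H209.

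**Figure D2:**
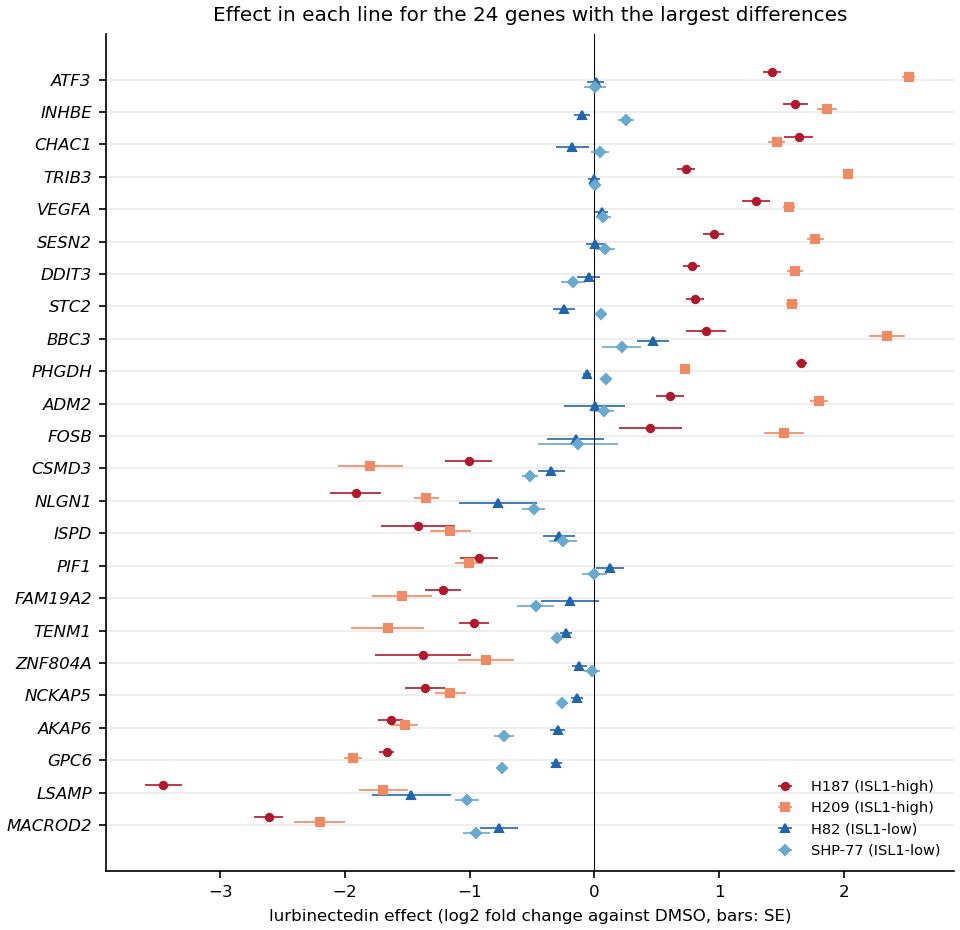
Lurbinectedin effect in each of the 4 lines (log2 fold change with its SE, 3 against 3 libraries) for the 12 largest positive and the 12 largest negative response differences named by rule. For the positive genes the ISL1-low lines lie between -0.24 (STC2 in H82) and 0.47 (BBC3 in H82), whereas for most negative genes they lie below 0 and the ISL1-high lines lie further below.

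Enzymes that make serine and 1-carbon units rose with the stress regulators. Of 13 genes of serine synthesis and folate metabolism tested, 10 were called higher and 0 lower, with a median of 0.33. The first enzyme of the serine pathway, PHGDH (chr1:119711796-119744226), stood at 16.4, 15.3 and 14.8 CPM in H187 under DMSO and at 48.3, 48.3 and 50.5 CPM with lurbinectedin. In H209 it went from 176, 179 and 176 CPM to 297, 299 and 285 CPM. H82 ran from 275 to 284 CPM under DMSO and 266 to 270 CPM with the drug, and SHP-77 from 197 to 210.1 CPM and 213 to 218 CPM. H187 thus had the lowest baseline and the larger effect, 1.66 against 0.73 in H209, opposite to the order seen for ATF3 (response difference 1.18 ± 0.04, adjusted p = 1.5e-24). The next enzymes PSAT1 (0.78) and PSPH (0.56) and the mitochondrial folate enzymes SHMT2 (0.61) and MTHFD2 (0.56) were also called higher. Among the members not called were GLDC (-0.33) and MTHFD2L (-0.10). Leaving out H209 gave a median of 0.30 with 10 members called.

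Amino acid transporters and cytosolic tRNA synthetases shifted in the same direction, with larger median effects in H209 than in H187. Of 15 transporters tested 10 were called higher and 1, SLC36A4, lower (median 0.36). SLC7A11, the cystine importer, had a difference of 0.87 ± 0.06, with SLC7A5, the large neutral amino acid transporter, at 0.65 and their shared heavy chain SLC3A2 at 0.73. SLC7A11 rose from 19.4 to 24.3 CPM to 30.7 to 32.4 CPM in H187 and from 63.9 to 70.3 CPM to 120 to 131 CPM in H209, and moved from 16.9 to 18.8 CPM to 13.4 to 14.7 CPM in H82. Of 19 cytosolic tRNA synthetases 14 were called higher and 0 lower (median 0.19), led by SARS (0.56), TARS (0.54) and AARS (0.48). Of 16 mitochondrial tRNA synthetases 0 were called higher and 5 lower (median -0.05), beside 15.9% and 15.5% of all genes. Leaving out H209 gave medians of 0.10 for the transporters with 7 called and 0.08 for the cytosolic synthetases with 7 called.

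Immediate early genes, which respond to signals within minutes, were higher in 18 of 26 members tested and lower in 1 (median 0.32). ARC, a synaptic plasticity gene with an immediate early promoter, rose from 4.59 to 5.43 CPM to 7.11 to 7.82 CPM in H187 and from 5.04 to 5.49 CPM to 13.8 to 15.8 CPM in H209, and its libraries overlapped in both ISL1-low lines (difference 1.01 ± 0.11). KLF10, a transforming growth factor-responsive repressor, had a difference of 0.81. FOSB, an AP-1 subunit, had 1.13 ± 0.25, but without the H209 line it was 0.59 with an adjusted p of 0.21. Without that line 8 members of the list were called and the median was 0.19.

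Among NF-kB target and feedback genes 10 of 16 tested were called higher and 0 lower (median 0.22). TNFAIP3, the ubiquitin-editing inhibitor A20, was a low transcript and had 1.60, 1.46 and 1.19 CPM in H187 under DMSO and 3.81, 3.91 and 3.57 CPM with lurbinectedin. It went from 0.510, 0.549 and 0.486 CPM to 1.80, 1.62 and 1.54 CPM in H209. In H82 it was 0.615, 1.11 and 1.04 CPM against 0.549, 0.781 and 0.863 CPM, and in SHP-77 2.55, 2.06 and 3.08 CPM against 2.55, 2.78 and 2.48 CPM. Groups were apart in the ISL1-high lines and overlapped in the others (difference 1.68 ± 0.22, adjusted p = 1.0e-07). This difference was second to that of ATF3 among all genes called, but the mean level was below the limit of the rule for the largest differences. REL (0.33) and NFKBIB (0.34) showed smaller differences. Without the H209 line 6 members were called, and without SHP-77 also 6.

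Cell death and p53 genes split by gene. Of 8 BH3-only genes, the initiators of mitochondrial apoptosis, 3 were called higher and 0 lower, a share of 37.5% beside 31.4% of all genes. BBC3, which encodes PUMA, rose from 2.58, 3.08 and 2.41 CPM to 5.10, 4.91 and 4.96 CPM in H187 and from 3.06, 2.29 and 2.06 CPM to 13.5, 12.6 and 11.5 CPM in H209. H82 had 4.98, 4.75 and 7.43 CPM under DMSO and 8.53, 7.91 and 7.32 CPM with the drug, an effect of 0.47, and SHP-77 moved by 0.22. The response difference of BBC3 was 1.27 ± 0.15 (adjusted p = 1.7e-08). Its rise in H82 was called (adjusted p = 0.023), and the difference between H187 and H82 was not (0.42, adjusted p = 0.19). PMAIP1, which encodes NOXA, had 0.84 and BCL2L11, which encodes BIM, 0.15. Of 24 p53 target genes 9 were called higher and 4 lower, beside 15.9% and 15.5% of all genes. The members called higher included SESN2, BBC3, PMAIP1 and GADD45A, of which SESN2 and GADD45A also stand in the stress or immediate early lists. MDM2 (-0.10) was called lower, though its sign was not shared by all 4 pairs, and BAX was at -0.01 with no call. BCL2L1, the survival factor BCL-XL, was lower by 0.16.

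DNA replication and mitosis genes moved in opposite directions, in both ISL1-high lines. Of 53 replication and E2F target genes tested, 49 were called higher and 0 lower, with a median of 0.32. Of 50 G2/M and mitosis genes, 1 was called higher and 44 lower, with a median of -0.34. The replication genes had a median effect of 0.29 for H187 and 0.30 for H209, and of -0.04 for H82 and 0.05 for SHP-77. For the mitosis genes it was -0.26 and -0.39 against -0.02 and 0.00. Of the replication genes 38 were called in all 4 pairs of lines and of the mitosis genes 30, beside 5.02% of all genes. With H209 left out 46 replication genes and 36 mitosis genes were called, with medians of 0.30 and -0.30.

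DTL, the substrate receptor of the ubiquitin ligase that destroys the licensing factor CDT1 (chr1:212035553-212105006), led the replication list. It rose from 102, 101 and 108 CPM to 161, 160 and 159 CPM in H187 and from 150, 146 and 145 CPM to 268, 268 and 270 CPM in H209. In H82 it was 235, 234 and 228 CPM under DMSO and 212, 224 and 219 CPM with lurbinectedin, and in SHP-77 121, 128 and 134 CPM and 131, 132 and 133 CPM. The treated libraries of the ISL1-high lines were higher without overlap, those of H82 were lower without overlap and those of SHP-77 overlapped. The difference was 0.77 ± 0.03 (adjusted p = 2.0e-19). CDC6, which loads the replicative helicase, had 0.57 and RRM2, the ribonucleotide reductase subunit, 0.46. The transcription factors E2F8 (0.68) and E2F2 (0.51) and the origin-binding subunit ORC1 (0.63) were also called higher, and RPA1 (0.01), RPA3 (-0.07), PRIM2 (0.07) and ORC6 (0.14) were not called.

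PLK1, a kinase of mitotic entry (chr16:23678772-23690367), led the mitosis list. It fell from 132, 129 and 119 CPM to 73.7, 70.0 and 73.4 CPM in H187 and from 174, 175 and 174 CPM to 88.5, 98.5 and 93.8 CPM in H209. H82 had 344, 347 and 352 CPM and then 361, 356 and 357 CPM, and SHP-77 had 134, 138 and 129 CPM and then 133, 124 and 127 CPM. H82 therefore held PLK1 at more than any other line and kept it there. The response difference was -0.84 ± 0.04 (adjusted p = 3.5e-19). CCNB1, the mitotic cyclin, had -0.83 and KIF20A, a kinesin of cytokinesis, -0.62. PIF1, a DNA helicase (chr15:64815630-64825668), was outside the list but among the 12 largest negative differences at -1.03 ± 0.12. It fell from 4.90 to 7.21 CPM to 2.91 to 3.89 CPM in H187 and from 11.8 to 15.4 CPM to 6.31 to 7.78 CPM in H209. Its libraries overlapped between treatments in H82 and SHP-77.

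The promoters of DTL, PLK1 and PIF1 are shown for elements that were searched in the windows of the 2 lists. Capitals mark TTTGGCGC, an E2F element, in DTL, and TTTGAA, the cell cycle homology region of G2/M genes, in PLK1 and PIF1. The first matching base lies at position -8 from the start in DTL (chr1:212035498-212035797, plus strand), -29 in PLK1 (chr16:23678639-23678938, plus strand) and -20 in PIF1 (chr15:64825598-64825897, minus strand).
DTL: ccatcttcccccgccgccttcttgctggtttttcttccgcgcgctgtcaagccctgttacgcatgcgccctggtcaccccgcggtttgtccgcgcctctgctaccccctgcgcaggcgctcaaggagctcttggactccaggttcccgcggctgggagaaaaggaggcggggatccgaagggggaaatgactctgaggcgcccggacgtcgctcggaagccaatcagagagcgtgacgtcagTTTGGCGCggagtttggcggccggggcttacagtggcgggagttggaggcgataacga
PLK1: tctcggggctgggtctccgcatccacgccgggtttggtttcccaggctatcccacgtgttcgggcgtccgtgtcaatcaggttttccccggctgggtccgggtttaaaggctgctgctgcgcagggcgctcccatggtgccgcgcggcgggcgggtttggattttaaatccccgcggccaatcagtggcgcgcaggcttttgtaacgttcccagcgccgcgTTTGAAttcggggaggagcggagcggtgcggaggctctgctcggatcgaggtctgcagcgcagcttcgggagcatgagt
PIF1: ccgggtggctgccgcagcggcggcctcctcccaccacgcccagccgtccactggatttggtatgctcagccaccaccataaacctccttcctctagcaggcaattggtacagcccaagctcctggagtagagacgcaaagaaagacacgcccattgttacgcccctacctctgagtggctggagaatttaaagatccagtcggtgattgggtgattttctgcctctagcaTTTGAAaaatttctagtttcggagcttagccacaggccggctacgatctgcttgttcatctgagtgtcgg
TTTGAA was found in 30 of 43 mitosis windows (69.8%) against 836 of 9079 windows in all (9.21%) and 165 of 1341 windows of genes called lower with the same sign in all pairs (12.3%). It was also in 17 of 39 windows of replication-dependent histone genes (43.6%), a list with a higher response in the ISL1-high lines. TTTGGCGC was found in 9 of 44 replication windows (20.5%) against 1.22% of all windows, and the other E2F element searched, TTTCCCGC, in 11 (25%) against 2.74%. Both strands were searched for each, and TGACGTCA, the cAMP response element, was also searched (3.62% of all windows, 1 of 21 integrated stress response windows). TGACGTCA was in 5 of 43 mitosis windows (11.6%), 4 of 44 replication windows (9.09%) and 7 of 39 histone windows (17.9%).

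**Figure D3:**
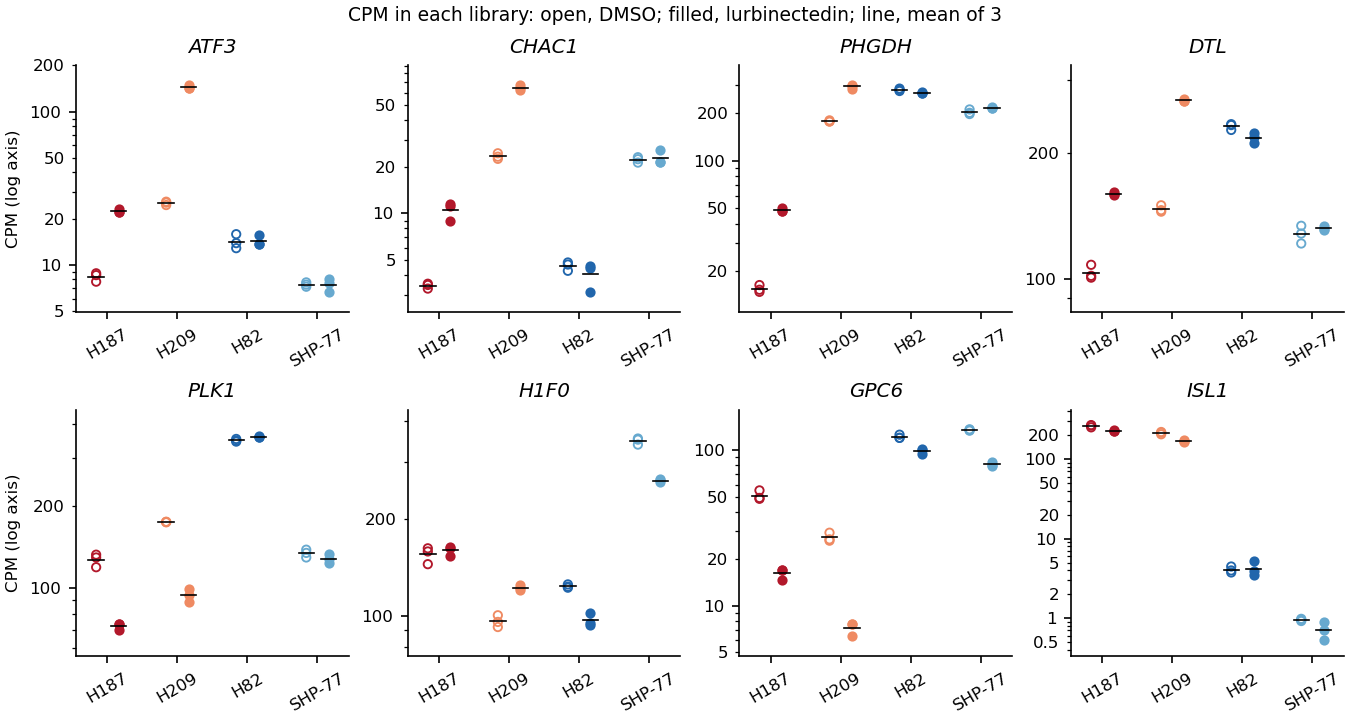
CPM in each of the 24 libraries for 8 genes (log axis, open points DMSO, filled points lurbinectedin, black line the mean of 3). ATF3, CHAC1 and DTL rise and PLK1 falls in H187 and H209 without overlap, GPC6 falls in all 4 lines, H1F0 falls in H82 and SHP-77, and ISL1 separates the classes.

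Lists of DNA repair and checkpoint genes differed in how many members were called. Of 32 homologous recombination genes 22 were called higher and 1 lower (median 0.23). EXO1, a resection nuclease, had the largest difference at 0.71 ± 0.04. It rose from 64.7 to 67.8 CPM to 98.0 to 98.5 CPM in H187 and from 96.3 to 104 CPM to 183 to 191 CPM in H209. BRCA2 had 0.63, BRIP1 0.49 and BRCA1 0.42. The member called lower was RAD51B at -0.46, a gene of 400 kb or more with a negative effect in all 4 lines. Of 24 checkpoint genes 11 were called higher and 2 lower, beside 15.9% and 15.5% of all genes. PKMYT1, an inhibitory kinase of CDK1, had 0.69 and CLSPN, the adaptor of ATR signalling, 0.44, while the CDK1-activating phosphatases CDC25B (-0.33) and CDC25C (-0.15) were the 2 lower. The third phosphatase of that family, CDC25A, was called higher (0.38) in all 4 pairs of lines. With the H82 line left out 8 checkpoint genes were called. Of 20 Fanconi anaemia genes 6 were called higher and 1, FANCD2, lower (-0.21, with an adjusted p of 0.067 without SHP-77), a share of 35% beside 31.4% of all genes. Of 24 nucleotide excision repair genes, whose transcription-coupled branch acts on stalled polymerase, 5 were called higher and 4 lower (median 0.01), a share of 37.5% beside 31.4% of all genes. Its members ERCC6 (-0.07), ERCC8 (-0.06) and UVSSA (-0.05) were not called, and 5 members of the list were called when H209 was left out.

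Histone genes gave one of the few patterns in which the ISL1-low lines themselves changed. Of 49 replication-dependent histone genes 34 were called higher and 0 lower (median 0.23). In the ISL1-high lines 28 rose and 8 fell, and in the ISL1-low lines 0 rose and 29 fell, with medians from H187 to SHP-77, in the order used above, of 0.02, 0.14, -0.14 and -0.10. HIST3H2A had the largest called difference at 0.62 ± 0.05. It went from 10.5 to 12.0 CPM to 11.4 to 12.4 CPM in H187 and from 26.4 to 28.2 CPM to 35.0 to 37.9 CPM in H209. It went from 149 to 166 CPM to 130 to 140 CPM in H82 and from 41.8 to 44.0 CPM to 28.9 to 31.8 CPM in SHP-77. The linker histone gene H1F0 lies outside this list and behaved likewise at 0.57 ± 0.04. Its libraries overlapped in H187, were higher in H209 (92.2 to 100.3 CPM against 120 to 124 CPM), and were lower in H82 (122 to 125 CPM against 93.7 to 102 CPM) and in SHP-77 (339 to 354 CPM against 260 to 264 CPM). Histone genes of a cluster share sequence, so reads may be divided between copies. With H209 left out 19 members were called, with a median of 0.14.

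In 139 genes both class effects were called, in opposite directions, with the same sign of difference in all 4 pairs. The rise was in the ISL1-high lines for 66 of them, 14 of which were histone genes, and in the ISL1-low lines for 73. UBE2C, the ubiquitin-conjugating enzyme of the anaphase-promoting complex, fell from 236, 237 and 223 CPM to 176, 175 and 181 CPM in H187 and from 150, 148 and 151 CPM to 104, 104 and 105 CPM in H209. It rose from 198, 192 and 200 CPM to 221, 220 and 222 CPM in H82 and from 158, 156 and 150 CPM to 179, 174 and 173 CPM in SHP-77. All 4 lines thus had treated and control libraries apart, lower in both ISL1-high lines and higher in both ISL1-low lines (difference -0.62 ± 0.03, adjusted p = 1.1e-17). These genes were chosen for opposite class effects, so their opposite signs are a description. TUBA1C, an alpha-tubulin, had -0.59 and CDC25B -0.33 by the same pattern. TP53INP1, a p53-induced gene, rose in H82 (0.37) and SHP-77 (0.31), fell in H187 (-0.28) and was at -0.02 in H209. XBP1, a transcription factor of the unfolded protein response, was at 0.05 for H187 and 0.78 for H209, with -0.14 for H82 and -0.19 for SHP-77, so that its positive class mean rests on H209.

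A change called in the ISL1-low lines alone lay behind 67 of the genes with a higher difference, which fell there, and 93 of those with a lower difference, which rose there. Another 5 genes (HIST1H2BL, HIST1H3J, RABGAP1L, TM7SF2 and TP53I11) were called in the same direction in both classes with the larger effect in the ISL1-low lines. In 40 genes the low-line effect was called with a size of at least 0.2 on the log2 scale, exceeded the effect in the ISL1-high lines and gave a called difference with the same sign in all pairs. Of these, 28 were higher and 12 lower in the ISL1-low lines, and 4 of the 40 were histone genes. Among them HIST3H2BB (0.39) and HIST1H2BJ (0.31) had positive differences because they fell in H82 and SHP-77. TP53I11 had a difference of -0.14 and rose in all 4 lines by 0.07 to 0.32 in point estimate, a call lost without H209 (adjusted p = 0.10) or SHP-77 (0.41).

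Most long genes had a lower response in the ISL1-high lines. In the list of long neuronal adhesion and guidance genes 25 were tested (of 67 listed). The list also holds long genes of other kinds, such as MACROD2, WWOX and IMMP2L. Of its tested members 23 were called lower and 1, SLIT2, higher without the same sign in all pairs, with a median of -0.66. H187 and H209 had median effects of -0.93 and -1.18, H82 and SHP-77 of -0.28 and -0.37, and 24 members fell in the ISL1-high and 17 in the ISL1-low lines. Of the 12 largest negative differences named by rule, 11 were genes of 300 kb or more, PIF1 with 10.0 kb being the other, whereas the longest of the 12 largest positive ones spanned 55.4 kb. With H209 left out the list had 22 members called and a median of -0.57.

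MACROD2, which encodes an ADP-ribose hydrolase over 2058 kb (chr20:13995500-16053196), had the largest negative difference of the genes named by rule. It fell from 13.9, 12.2 and 14.4 CPM to 2.24, 2.13 and 2.25 CPM in H187 and from 2.98, 2.84 and 2.43 CPM to 0.514, 0.566 and 0.701 CPM in H209. It fell from 3.63, 3.04 and 3.73 CPM to 2.09, 1.73 and 2.31 CPM in H82 and from 9.75, 10.6 and 9.14 CPM to 5.59, 5.08 and 4.64 CPM in SHP-77. Treated libraries were below controls without overlap in every line, by a log2 fold change of -2.61, -2.20, -0.77 and -0.95 in that order. The response difference was -1.55 ± 0.16 (adjusted p = 4.1e-10).

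GPC6, a cell-surface glypican of 1181 kb (chr13:93226808-94408019), was better expressed and more precise. It fell from 48.7, 49.4 and 55.2 CPM to 16.9, 16.9 and 14.7 CPM in H187 and from 26.7, 26.2 and 29.5 CPM to 7.61, 7.60 and 6.35 CPM in H209. In H82 it fell from 126, 120.3 and 120.2 CPM to 94.2, 102 and 101 CPM and in SHP-77 from 134, 135 and 137 CPM to 83.7, 80.4 and 79.0 CPM. The difference was -1.28 ± 0.06 (adjusted p = 1.8e-19). PTPRD, a receptor phosphatase, had -0.79 and ROBO1, an axon guidance receptor, -0.42. LSAMP, an adhesion protein of 643 kb, had -1.33 ± 0.24, but H187 fell by 3.46 and the other 3 lines by 1.02 to 1.69, and without H187 the difference was -0.45 with an adjusted p of 0.22. NLGN1, a synaptic adhesion gene, had -1.0, with an adjusted p of 0.071 without SHP-77.

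The response difference was lower for long genes. Genes under 10 kb had a median response difference of -0.01 (2691 genes), those of 10 to 30 kb 0.02 (3228 genes) and those of 30 to 100 kb 0.02 (3562 genes). It was -0.04 for 1568 genes of 100 to 300 kb and -0.23 for 328 genes of 300 to 1000 kb, of which 188 (57.3%) were called lower and 9 higher, beside 15.5% and 15.9% of all genes. For 27 genes over 1000 kb it was -0.41, with 12 called lower and 1 higher, and without the H209 line it was -0.20. The share called lower was smaller over 1000 kb (44.4%) than from 300 to 1000 kb. The median was negative in each of the 4 pairs of lines in both bins, from -0.25 to -0.19 between 300 and 1000 kb and from -0.33 to -0.09 over 1000 kb. The median effects over 1000 kb were -0.33 for H187, -0.25 for H209, -0.20 for H82 and -0.16 for SHP-77. Of the single lines, H82 alone was thus lower there than in the bin before. The median of the class mean effect behaved otherwise in the ISL1-high lines, at -0.500 over 1000 kb and -0.375 from 300 to 1000 kb. In the ISL1-low lines it was -0.155 and -0.161. Among the 212 genes of 400 kb or more 188 fell in the ISL1-high lines and 137 in the ISL1-low lines, beside 25.2% and 5.66% of all genes. Genes of 300 kb or more that were called higher numbered 10 of 355, and POLA1, a replication polymerase gene, was one of them.

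**Figure D4:**
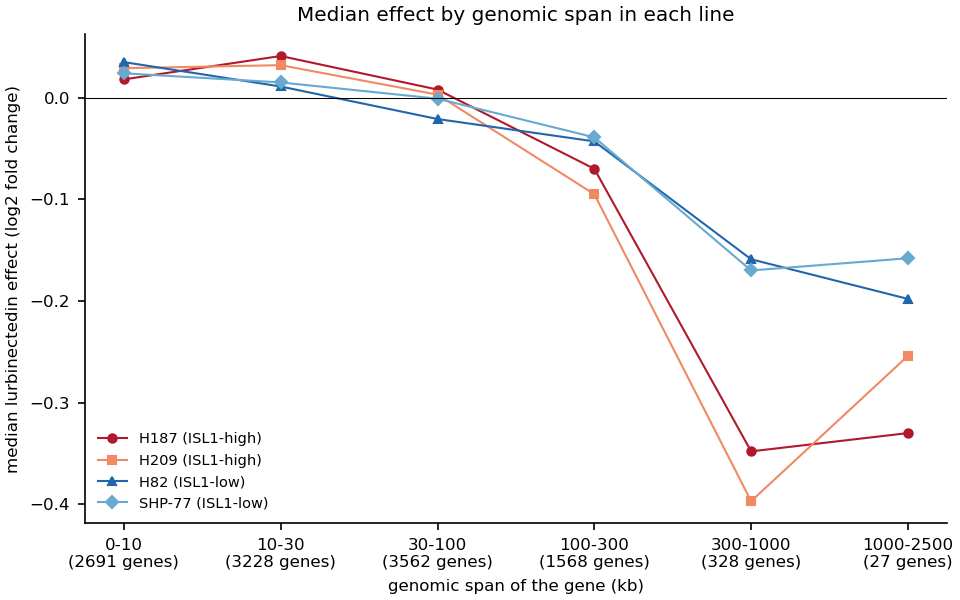
Median lurbinectedin effect (log2 fold change) in each line by genomic span of the gene (kb, number of genes in brackets). The 4 lines lie together up to 100 kb, and in the bin of 300 to 1000 kb H187 (-0.35) and H209 (-0.40) lie below H82 (-0.16) and SHP-77 (-0.17). In the bin over 1000 kb (27 genes) H187 and H209 stand at -0.33 and -0.25.

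Ion channel genes, many of them long, had 9 of 16 members called lower and 0 higher (median -0.20). KCNMA1, a calcium-activated potassium channel of 768 kb, had -0.55, KCNB2 -0.32 and the calcium channel subunit CACNA2D1 -0.30. KCNMA1 fell in all 4 lines, by 0.73 and 1.19 for the ISL1-high and 0.56 and 0.26 for the ISL1-low lines. In the D cyclin and RB group, 3 of 11 genes were called higher and 3 lower, beside 15.9% and 15.5% of all genes. CDK6, a kinase that inactivates RB (232 kb), had -0.90 ± 0.13. It was a low transcript in the ISL1-high lines, at 1.27 to 1.91 CPM in H187 and 1.80 to 2.62 CPM in H209 under DMSO and 0.746 to 0.992 and 0.868 to 1.38 CPM with the drug. In the ISL1-low lines it stood at 359 to 399 CPM in H82 and 170 to 178 CPM in SHP-77 over all libraries, with treated and control libraries overlapping.

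Ribosomal protein, oxidative phosphorylation and chaperone genes had a lower response in the ISL1-high lines, by small amounts. Of 76 cytosolic ribosomal protein genes 48 were called lower and 0 higher (median -0.13), with FAU, RPL37A and RPS25 at -0.21, -0.22 and -0.20. Of 64 oxidative phosphorylation genes 40 were called lower and 0 higher (median -0.16). NDUFS5, a subunit of complex I, went from 50.8, 51.3 and 54.4 CPM to 41.5, 46.9 and 45.4 CPM in H187 and from 96.9, 87.8 and 95.0 CPM to 77.6, 76.7 and 78.2 CPM in H209. It was 72.3 to 82 CPM and 79.2 to 86.8 CPM in H82 and 54.5 to 56.9 CPM and 55.7 to 58.5 CPM in SHP-77 (difference -0.33 ± 0.05). The ISL1-high lines were lower after treatment without overlap and the ISL1-low lines were not. When H209 was left out 22 ribosomal protein genes and 19 oxidative phosphorylation genes were called, and without the H82 line 22 and 24.

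Of 22 heat shock chaperones tested 17 were called lower and 1, HSPA9, higher (median -0.16). HSPA8, the constitutive cytosolic HSP70, ran from 1988 to 2245 CPM under DMSO and 1640 to 1769 CPM with lurbinectedin in H187, and from 1832 to 1955 CPM and 1296 to 1343 CPM in H209. It overlapped between treatments in both ISL1-low lines (difference -0.39 ± 0.04). HSPA9, the mitochondrial HSP70, had 0.31. Of 28 unfolded protein response genes 5 were called higher and 12 lower, beside 15.9% and 15.5% of all genes. The lower ones were largely chaperones of the endoplasmic reticulum, such as HSP90B1 (-0.37), HSPA5 (-0.32) and CALR (-0.21). The higher ones were XBP1 (0.58), HERPUD1 (0.63), ERN1 (0.66), DNAJB9 (0.24) and EIF2AK3 (0.12), of which ERN1 and EIF2AK3 did not have the same sign in all pairs. HERPUD1 was 0.08 in H187 and 0.93 in H209. When H209 was left out 6 chaperone genes and 9 unfolded protein response genes were called, with medians of -0.07 for each.

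With all 4 lines, the response difference was not called for the transcription factors ISL1 and INSM1. ISL1 had -0.07 ± 0.13 (adjusted p = 0.72). It went from 268, 264 and 251 CPM to 227, 224 and 233 CPM in H187 and from 215, 219 and 205 CPM to 171, 166 and 175 CPM in H209, without overlap. In the ISL1-low lines it was 3.75 to 4.46 CPM against 3.44 to 5.21 CPM in H82 and 0.920 to 0.981 CPM against 0.524 to 0.897 CPM in SHP-77, where the effect of -0.41 was not called (adjusted p = 0.41). INSM1 had -0.13 (adjusted p = 0.14), with -0.22 in H187 and 0.17 in H209.

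DLL3, an inhibitory Notch ligand and a surface drug target (chr19:39498917-39508481), moved in opposite directions. It went from 199, 206 and 211 CPM to 183, 172 and 175 CPM in H187 and from 128, 122 and 144 CPM to 121, 116 and 118 CPM in H209. It went from 112, 107 and 126 CPM to 128, 139 and 141 CPM in H82 and from 285, 256 and 245 CPM to 269, 269 and 299 CPM in SHP-77. Controls and treated libraries were apart in H187, H209 and H82 and overlapped in SHP-77 (difference -0.35 ± 0.05, adjusted p = 5.2e-06). Of 18 Notch pathway genes tested 2 were called higher and 7 lower (median -0.09), beside 15.9% and 15.5% of all genes. HEY2, a transcriptional repressor induced by Notch, had the largest difference of the list at 0.89 (adjusted p = 5.4e-06) and was called in all 4 pairs of lines. The coactivator MAML3, of 438 kb, had -0.50 and was called in 3 pairs, and the glycosyltransferase LFNG had -0.41 and was called in 2.

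Among 23 lineage transcription factors 3 were called higher and 6 lower, and among 28 neuroendocrine markers 4 were called higher and 5 lower, 39.1% and 32.1% beside 31.4% of all genes. NFIA (386 kb) had -0.54 and SOX4 -0.21, and the LIM homeodomain gene LHX2 had 0.48. Of the markers, TAGLN3, a neuronal calponin-family gene, had -0.50 and SYT1, the calcium sensor of vesicle release (588 kb), -0.37, while SEZ6 was higher by 0.24.

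**Figure D5:**
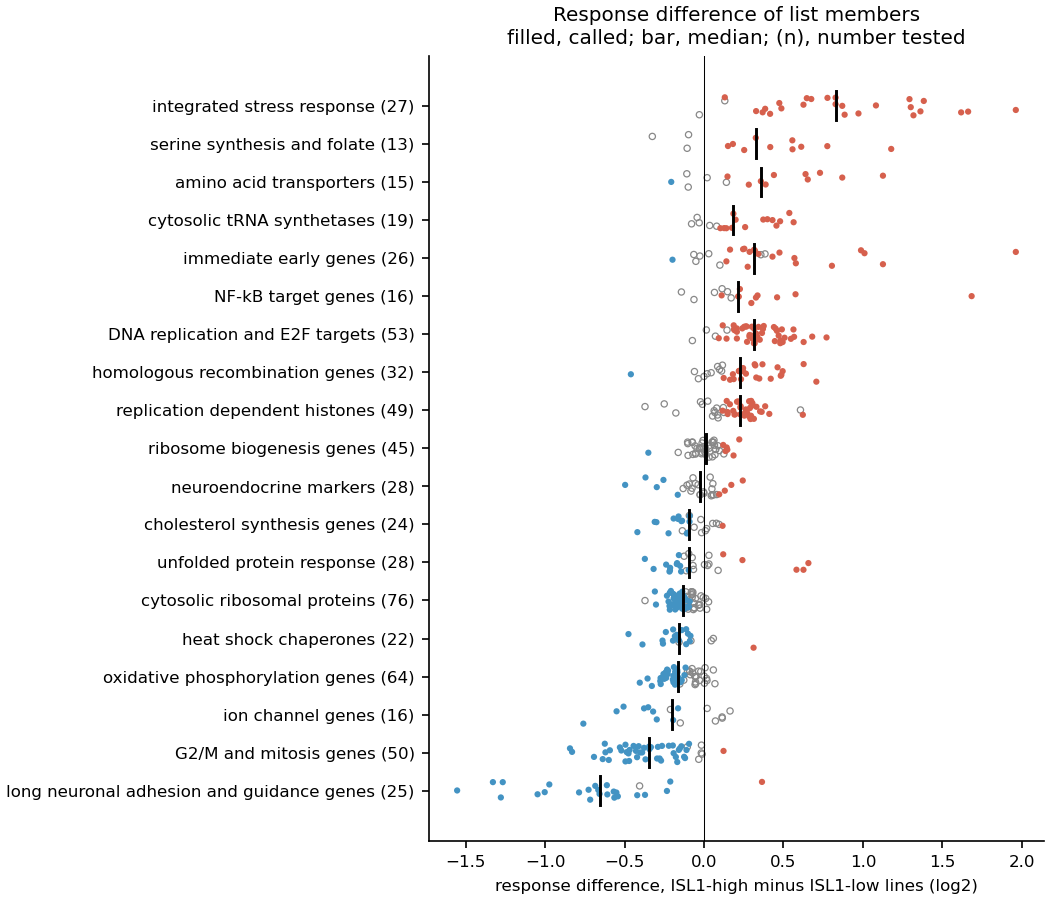
Response difference (log2) of each tested member of 19 gene lists, with the number tested in brackets. Filled points are called members (red higher, blue lower), open points are not called and black bars are medians, which run from 0.83 for the integrated stress response to -0.66 for the long neuronal genes.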

How the data were processed

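Per the submitters' processing notes, reads were handled with STAR 2.7.10a, featureCounts, Subread 2.0.3 and edgeR 4.2.0 on hg38. The annotation, the strand setting and any count filter are not given in the sources used here. The authors deposited 4 line tables with raw counts per gene and sample, and these counts were used. The log2 CPM and log2 fold changes that the authors deposited beside them, and the other deposited table, were not used. Genes in all 4 tables (11408) were joined by symbol. The test was run with edgeR 4.0.16 under R 4.3.3, with filterByExpr (minimum count 10, minimum total 15; it removed none), TMM scaling, 1 mean per line and treatment over 24 libraries, glmQLFit and glmQLFTest, Benjamini-Hochberg adjustment and a threshold of 0.05. CPM use TMM-scaled library sizes, and ± is the SE of a log2 value. Alternatives used DESeq2 1.42.0 and limma 3.58.1. Replicates were compared in pairs (chi-square per degree of freedom of 2.45 to 11.6, 0 identical). On simulated counts the test recovered 71% of 100 differences of 0.3 and 99% of 100 differences of 1 among 11408 genes, and 6.08% of its calls were unchanged genes. The simulation changed these genes equally in both ISL1-high lines and gave no other gene a response. Its rates therefore do not measure the error of the calls in the data.

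Named genes were the 12 largest differences per direction (protein-coding, same sign in all 4 pairs, mean log2 CPM of at least 1), the 3 smallest p-values of each of 40 lists with the same sign, 6 opposite genes per direction, 6 genes with the larger effect in the ISL1-low lines, and ISL1, INSM1 and DLL3. Some genes the rule names are not reported here. Other list members named were chosen after their values were seen. The comparison, the lists and the rule were chosen with earlier results of these data known, so counts over lists are descriptions. Counting may split reads between overlapping or near-identical genes.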

Additional observations from a re-analysis of the deposited data

Results flagged for a closer look

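The response to lurbinectedin differed between the classes in 3580 genes by the test of the difference itself, between H209 and H187 in 1268 genes and between SHP-77 and H82 in 39 genes. In 144 genes the effects of the classes were called in opposite directions, and in 139 of these the difference had the same sign in all 4 pairs of lines. The genes named from these had response differences of 0.57 (H1F0), 0.62 (HIST3H2A), 0.58 (XBP1), 0.35 (HIST1H2AI), 0.33 (HIST2H2AC) and 0.30 (HIST1H2BF) where the mean of the ISL1-high lines rose, and of -0.62 (UBE2C), -0.59 (TUBA1C), -0.33 (CDC25B), -0.49 (TP53INP1), -0.29 (TTYH3) and -0.27 (CCSAP) where that mean fell. The rise lay mostly in H209 for XBP1 (0.054 in H187, 0.779 in H209), HIST1H2AI (0.018 and 0.316) and HIST2H2AC (0.073 and 0.265). TP53INP1 fell in H187 (-0.280) and was at -0.023 in H209, whereas UBE2C fell in both (-0.384 and -0.519). No sample was tested as an outlier, since each group has 3.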

How the results depend on the processing

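The response difference was called for 3333 to 3689 genes without single libraries, 3553 with DESeq2, 3598 with RLE size factors, 3912 after a GC correction and 3373 with a replicate block within each line. The block is not part of the design: same-numbered libraries correlated at -0.343 to 0.211, so the numbers do not pair them. The 3580 calls became 1959 without H209 (1054 higher, 905 lower), 31 with a size of at least 1 (17 and 14), 573 with all 4 pairs called (306 and 267) and 0 with limma on 1 value per line (0 and 0). The cause was not tested. Calls in the ISL1-low lines ran from 745 (without SHP-77 lurbinectedin 3) and 768 (without H82 DMSO 1) to 1622 (without H82 DMSO 3). Of 131 named genes called, 116 kept the call under each alternative other than limma on lines. INSM1 turned to 0.060 without H187 and 0.036 without H82, and ISL1, which ran from -0.163 to 0.043 without single libraries, to 0.019 without H82 lurbinectedin 3, 0.043 without SHP-77 lurbinectedin 3 and 0.151 without H82. INSM1 was called without H209 (-0.32) and SHP-77 (-0.30). The GC correction of the class effects, lists and length bins, the CPM minimum for lists, the block for length bins and the lists without single lines were chosen after the data were seen.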

Other observations

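Host genes of small nucleolar RNAs, whose spliced transcripts are degraded when they are translated, had 11 of 22 members called higher and 3 lower (median 0.20). Of all genes 15.9% were called higher and 15.5% lower. SNHG1 rose from 65.8 to 89.7 CPM to 96.5 to 106 CPM in H187 and from 53.3 to 62.7 CPM to 121 to 123 CPM in H209, and its libraries were lower or overlapping in SHP-77 and H82 (difference 0.83 ± 0.07). The list's median was 0.40 in H209 and 0.01 in H187, and without H209 it was 0.03 with 5 members called. Zinc finger genes of chromosome 19 had 51 of 195 members called higher and 1 lower (median 0.11), beside the same 15.9% and 15.5%. In either direction 26.7% of them were called, beside 31.4% of all genes, so the calls were few but nearly all higher. ZNF569, ZNF527 and ZNF180 had the smallest p-values among them, with 0.48, 0.47 and 0.42, and without H209 26 members were called.

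Cholesterol genes had 13 of 24 members called lower and 1 higher, beside 15.5% and 15.9% of all genes. MSMO1, a sterol oxidase, had -0.30. IRF1, an interferon-response factor, had 0.72 ± 0.10, though of 12 interferon-stimulated genes tested 3 were called higher and 1 lower (33.3% beside 31.4% of all genes). ULBP3, a ligand of the killer cell receptor NKG2D, had 0.57 ± 0.20, a call lost without each of 3 libraries (adjusted p = 0.054 to 0.17). Of 43 genes of RNA polymerase II and its elongation factors 8 were called higher and 7 lower (34.9% beside 31.4% of all genes), and of 45 ribosome biogenesis genes 6 and 1 (15.6%). Leaving out H209 gave 6 polymerase and 7 cholesterol genes called. Across the 11408 genes, which are not independent replicates, the mean effects of the classes had a Pearson's r of 0.377 and a Spearman's rho of 0.294.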
